A study of Mus musculus with 4 samples.

Results

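Glycolysis and hypoxia response genes are a list of 38 mouse genes made up of enzymes of glycolysis, glucose and lactate transporters, kinases that steer pyruvate and fructose phosphates, the subunits of the hypoxia-inducible factors (HIF) and other HIF target genes. Each was represented by the brightest of the probe sets annotated to its symbol alone, by mean over the arrays. Of the 38 genes, 34 had such a probe set, out of 18193 genes on the array. They were measured in C3H10T1/2 cells, an established mouse line labelled as mesenchymal stem cells. One group was treated for 6 hours with 100 ng/ml of recombinant human BMP3, a bone morphogenetic protein secreted by bone-forming cells, and the other was left untreated. RNA of 2 BMP3 and 2 control cultures, labelled as biological replicates, was hybridised to 4 Affymetrix 3' expression arrays. Values are the deposited intensities, read as log2, and a difference is BMP3 minus control on that scale with its standard error. No detection calls were used here, and a gene below the array median is described as near background. Levels of different genes come from different probes and are compared only between arrays of 1 probe set. Fewer cells expressing a gene and less RNA per cell cannot be told apart in such bulk samples.

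Glycolysis turns glucose into pyruvate in the cytosol, and lactate dehydrogenase then turns pyruvate into lactate or back. When oxygen is short, prolyl hydroxylases no longer mark HIF-1 alpha and HIF-2 alpha for destruction. The stabilised proteins pair with ARNT at hypoxia response elements and raise transcription of most glycolytic enzymes, of the glucose transporter GLUT1 and of genes such as Bnip3, Adm and Egln3. HIF activity is thus set mainly through protein stability, which arrays do not measure. Glycolytic genes also answer to growth factor signalling and to the transcription factor MYC.

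The short core of a hypoxia response element reads ACGTG or GCGTG. RefSeq promoter windows of assembly GRCm38.p6, from 250 bases before to 50 bases after a transcription start, were searched for both words on either strand. The table gave 50 windows for 34 of the 38 genes (not for Slc2a3, Bnip3l, Epas1 and Ndrg1). ACGTG was found in 25 member windows (50%) and in 19.6% of all 32851 windows, and GCGTG in 27 (54.0%) and in 32.4%. At least 1 of the words stood in 39 member windows (78.0%), against 43.8% of all windows. Member windows were also richer in CG dinucleotides, with a median of 20 against 7. Among the 8701 windows in the genome with at least 20 of them, 73.6% held 1 of the words, 29.0% held ACGTG and 63.5% held GCGTG. Those windows had a median of 28 CG dinucleotides, more than the member windows, so they were not a matched set. Every occurrence of CACGTG, the E-box read by MYC and clock factors, contains ACGTG on each strand. CACGTG stood in 7 member windows (14%), in 7.15% of all windows and in 11.6% of those with at least 20 CG dinucleotides. Among glycolytic enzyme windows it stood in 2 of 28 (7.14%). By group, 14 of 17 glycolytic enzyme genes and 7 of 7 other HIF target genes with a window had 1 of the words, against 12628 of 27025 genes overall and 5822 of 7772 genes among the windows rich in CG. A gene counted if any of its windows held a word, so these shares also depend on how many windows a gene has. The 17 enzyme genes had 28 windows. By window, the shares were 75.0% of 28 for enzymes and 77.8% of 9 for other HIF targets. A match in these letters is not evidence of a factor bound there.

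The following windows show how these words lie in selected genes known as HIF targets whose arrays did not overlap between groups. The enzyme genes Pkm, Ldha and Pgk1 and the glucose transporter gene Slc2a1 had higher values in BMP3 arrays, and Adm had lower values. Other members without overlap are not shown. Among them, Tpi1 (higher) had neither word in its window, while Pdk1 and Pfkfb3 (lower) had at least 1 in a window. Capitals mark ACGTG and GCGTG on either strand, and where a gene has several windows the one with most matches is shown.
Pkm promoter, chr9:59656977-59657276 (plus strand): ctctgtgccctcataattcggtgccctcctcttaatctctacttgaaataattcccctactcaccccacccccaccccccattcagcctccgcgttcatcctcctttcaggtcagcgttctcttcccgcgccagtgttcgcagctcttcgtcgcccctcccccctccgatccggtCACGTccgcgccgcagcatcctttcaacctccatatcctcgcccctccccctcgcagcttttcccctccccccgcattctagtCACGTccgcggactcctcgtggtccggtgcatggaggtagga
Ldha promoter, chr7:46845554-46845853 (plus strand): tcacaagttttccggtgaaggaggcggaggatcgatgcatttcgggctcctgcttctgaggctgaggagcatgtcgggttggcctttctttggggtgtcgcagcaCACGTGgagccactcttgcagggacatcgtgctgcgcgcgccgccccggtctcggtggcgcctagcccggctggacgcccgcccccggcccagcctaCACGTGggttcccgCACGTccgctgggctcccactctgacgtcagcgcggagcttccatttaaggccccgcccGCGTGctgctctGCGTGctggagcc
Pgk1 promoter, chrX:106186850-106187149 (plus strand): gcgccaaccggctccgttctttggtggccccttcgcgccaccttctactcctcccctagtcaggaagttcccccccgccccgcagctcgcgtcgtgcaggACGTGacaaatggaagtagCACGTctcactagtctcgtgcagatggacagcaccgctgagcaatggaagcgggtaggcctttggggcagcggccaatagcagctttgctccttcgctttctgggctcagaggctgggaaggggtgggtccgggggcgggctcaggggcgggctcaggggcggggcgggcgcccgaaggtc
Slc2a1 promoter, chr4:119108495-119108794 (plus strand): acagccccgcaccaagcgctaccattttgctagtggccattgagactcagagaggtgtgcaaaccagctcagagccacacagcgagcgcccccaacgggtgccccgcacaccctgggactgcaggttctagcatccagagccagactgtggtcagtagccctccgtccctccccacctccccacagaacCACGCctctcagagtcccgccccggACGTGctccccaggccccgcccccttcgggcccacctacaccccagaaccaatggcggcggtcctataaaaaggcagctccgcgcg
Adm promoter, chr7:110627407-110627706 (plus strand): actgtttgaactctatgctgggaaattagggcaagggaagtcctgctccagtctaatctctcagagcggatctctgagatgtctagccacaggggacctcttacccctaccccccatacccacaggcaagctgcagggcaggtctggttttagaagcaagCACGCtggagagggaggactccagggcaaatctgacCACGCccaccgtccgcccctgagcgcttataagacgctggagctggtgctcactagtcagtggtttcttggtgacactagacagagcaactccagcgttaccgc
The Ldha window held ACGTG 5 times, 4 of them within its 2 CACGTG words, and GCGTG 2 times. Pkm and Pgk1 had ACGTG 2 times each, Slc2a1 had each word 1 time, and Adm had only GCGTG, 2 times.

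The arrays differed in control probes beside the treatment. Array medians ran from 3.31 to 3.40, and Pearson's r over the probe sets whose mean was at least 6 was 0.978 between BMP3 replicates, 0.988 between control replicates and 0.964 to 0.981 between groups. The poly-A spike-in for dap averaged 9.13 and 8.85 in BMP3 arrays, against 10.39 and 9.86 in control arrays, and those for lys, phe and thr were also lower on both BMP3 arrays. 18S ribosomal RNA stood at 8.99 and 9.90 in BMP3 arrays and at 11.41 and 10.50 in control arrays. The 3' minus 5' difference of control probe sets is a sign of RNA quality. For Gapdh it was -0.09 and -0.44 in BMP3 arrays and -0.55 and -0.56 in control arrays, without overlap. For actin it was 0.73 and 0.38 in BMP3 arrays and 0.48 and 0.39 in control arrays, with overlap. The part of these differences in the results below was not tested. All 9 measured mesenchymal markers reached a log2 value of 6, of which 4 were higher and 5 lower (median -0.02), with a range from -0.73 for Pdgfra to 0.73 for Thy1. All 4 endothelial markers stayed below the array median. Of 5 macrophage and leukocyte markers 0 reached 6, and Ptprc, which all leukocytes carry, had 2.49 and 2.46 in BMP3 arrays and 2.48 and 2.55 in control arrays. Both BMP3 arrays lay above both control arrays for 2 of these 5, Csf1r and Cd68 (background 16.7% of genes). Csf1r had 4.70 and 4.78 in BMP3 arrays and 4.68 and 4.60 in control arrays. Cd68 had 3.62 and 4.11 in BMP3 arrays and 3.56 and 3.54 in control arrays, and only BMP3 replicate 2 stood apart. Of 5 epithelial markers only Epcam reached 6, at 9.63 and 9.49 in BMP3 arrays and 9.37 and 9.56 in control arrays.

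No member passed the test for a difference between BMP3 and control cells. Limma's adjusted p threshold of 0.05 was passed by 0 of 34 members and by 0 of 45037 probe sets (0%), with a smallest adjusted p of 0.213 over all probe sets and of 0.299 over the members. With a trended robust variance prior 1 probe set passed, which belonged to no member. An unadjusted p under 0.05 was reached by 3779 probe sets and by 5 members, Pkm, Tpi1, Pgk1, Adm and Hif1a. Over genes this rate was 9.8%, and over genes with a mean of at least 6 it was 18.2%. When a fold of at least 1.5 was also required, 1 member was higher (Pkm, background 1.18% of genes) and 1 lower (Adm, background 1.65% of genes). The Adm call was lost without either control replicate and without BMP3 replicate 1, while the Pkm call held with each array left out. The values below are therefore descriptions of these 4 arrays.

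Of the 34 members, 17 were higher and 17 lower in BMP3 arrays, 6 of the 34 being near background in both groups, and both BMP3 arrays lay above both control arrays for 9 members (background 16.7% of genes) and below them for 6 (background 20.6% of genes). Among genes averaging 6 or more these backgrounds were 26.1% and 21.7%. Glycolytic enzymes were higher for 10 of 14 members and lower for 4, with a median of 0.15, and for 7 of the 14 the BMP3 arrays lay wholly above the control arrays, with 0 the other way. Other HIF targets were higher for 2 of 8 and lower for 6, with 2 of the 8 near background and a median of -0.08, and for 0 members did the BMP3 arrays lie wholly above, with 1 below. The median over all genes was -0.01, and 0.02 over genes averaging 6 or more.

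**Figure D1:**
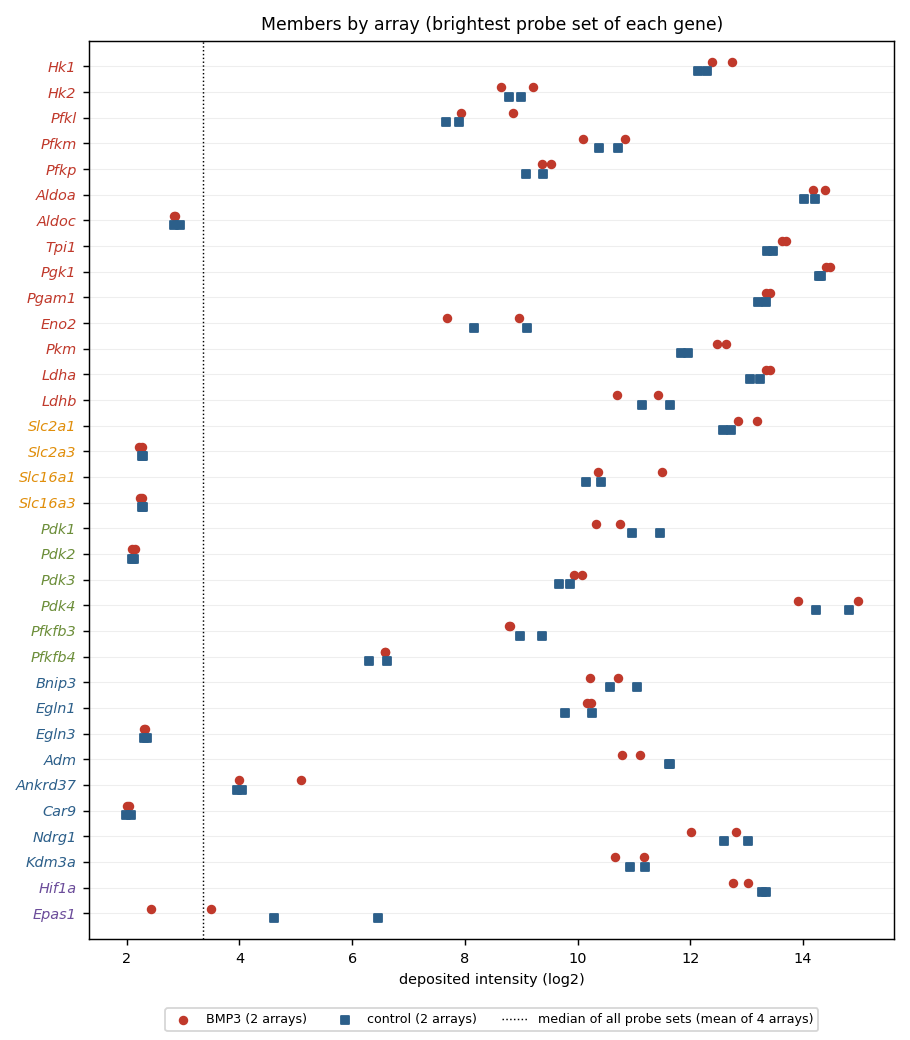
Deposited log2 intensity (horizontal axis) of the 34 members on each array, with BMP3 arrays as circles above and control arrays as squares below each gene's line, and gene names coloured by role. The dotted line is the median of all probe sets, and Aldoc, Slc2a3, Slc16a3, Pdk2, Egln3 and Car9 lie left of it on all arrays. Pkm and Slc2a1 circles lie to the right of their squares, and Adm, Hif1a and Epas1 circles to the left.

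Pyruvate kinase, which makes pyruvate and ATP in the last step of glycolysis, had the largest difference of the enzyme genes. Pkm stood at 12.64 and 12.48 in BMP3 arrays, against 11.95 and 11.83 in control arrays. Its arrays did not overlap, and the gap between groups exceeded the gap between replicates. The difference was 0.67 ± 0.09, a 1.59-fold higher value (95% interval 0.40 to 0.94, limma adjusted p = 0.299), and it ran from 0.59 to 0.75 when single arrays were left out. Pkm had 1 probe set, and splice forms were not analysed here.

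Several other enzymes of the later steps also had non-overlapping arrays, with smaller differences. Tpi1, which interconverts the triose phosphates, had 13.63 and 13.71 in BMP3 arrays and 13.47 and 13.36 in control arrays. Pgk1, the first ATP-making step, had 14.47 and 14.41 in BMP3 arrays and 14.28 and 14.31 in control arrays. Ldha, the lactate dehydrogenase subunit of lactate-producing tissues, had 13.35 and 13.42 in BMP3 arrays and 13.24 and 13.05 in control arrays. BMP3 arrays lay above control arrays for each of these genes. The differences were 0.25 ± 0.06 for Tpi1, 0.15 ± 0.04 for Pgk1 and 0.24 ± 0.09 for Ldha (limma adjusted p = 0.483, 0.547 and 0.655), and Ldha was at 0.14 without control replicate 2. Pgam1, phosphoglycerate mutase, stood at 13.34 and 13.41 in BMP3 arrays and at 13.33 and 13.20 in control arrays, so its groups were separated by less than the control replicates were (difference 0.11 ± 0.07, and 0.0414 without control replicate 2).

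Upstream enzymes differed less evenly. Hk1, the hexokinase of most tissues, had 12.74 and 12.39 in BMP3 arrays against 12.30 and 12.13 in control arrays (difference 0.35 ± 0.16). Its other probe set, with an average above 6, went the opposite way (-0.23 ± 0.14). Without BMP3 replicate 1 the Hk1 difference was 0.17, and without BMP3 replicate 2 it was 0.53. Hk2, the inducible hexokinase, had 8.64 and 9.22 in BMP3 arrays, which lay on both sides of the 8.78 and 9.0 of control arrays. Of the phosphofructokinase subunits, Pfkl had 7.93 and 8.86 in BMP3 arrays and 7.67 and 7.89 in control arrays, a difference of 0.62 ± 0.38 that rested on BMP3 replicate 2 and was 0.15 without it. Pfkp differed by 0.22 ± 0.14 and Pfkm by -0.08 ± 0.32, with overlapping arrays, and with single arrays left out Pfkp ran from 0.0696, without control replicate 1, to 0.37, without the other control array. Aldoa, the main aldolase, had 14.38 and 14.17 in BMP3 arrays and 14.22 and 14.02 in control arrays, with overlap (difference 0.16 ± 0.12). With single arrays left out Aldoa ran from 0.0495, without BMP3 replicate 1, to 0.26, without BMP3 replicate 2. Aldoc, the brain form, was near background on all arrays (2.83 to 2.94).

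The remaining enzyme genes with a level, Eno2 and Ldhb, had lower means in BMP3 arrays but a wide spread. Eno2, the neuronal enolase that HIF also induces, had 8.97 and 7.69 in BMP3 arrays and 9.10 and 8.17 in control arrays. Ldhb, the subunit of lactate-using tissues, had 11.44 and 10.70 in BMP3 arrays and 11.65 and 11.14 in control arrays. In both genes replicate 2 was the lower array of each group, and the gap between replicates exceeded the gap between groups. Their differences were -0.30 ± 0.63 and -0.33 ± 0.36, and both turned positive without BMP3 replicate 2 (0.34 and 0.04). Without control replicate 1, Eno2 was at 0.16 as well. Gpi1 and Eno1 were not analysed here, and Gapdh had no probe set of its own outside the array's control probe sets.

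**Figure D2:**
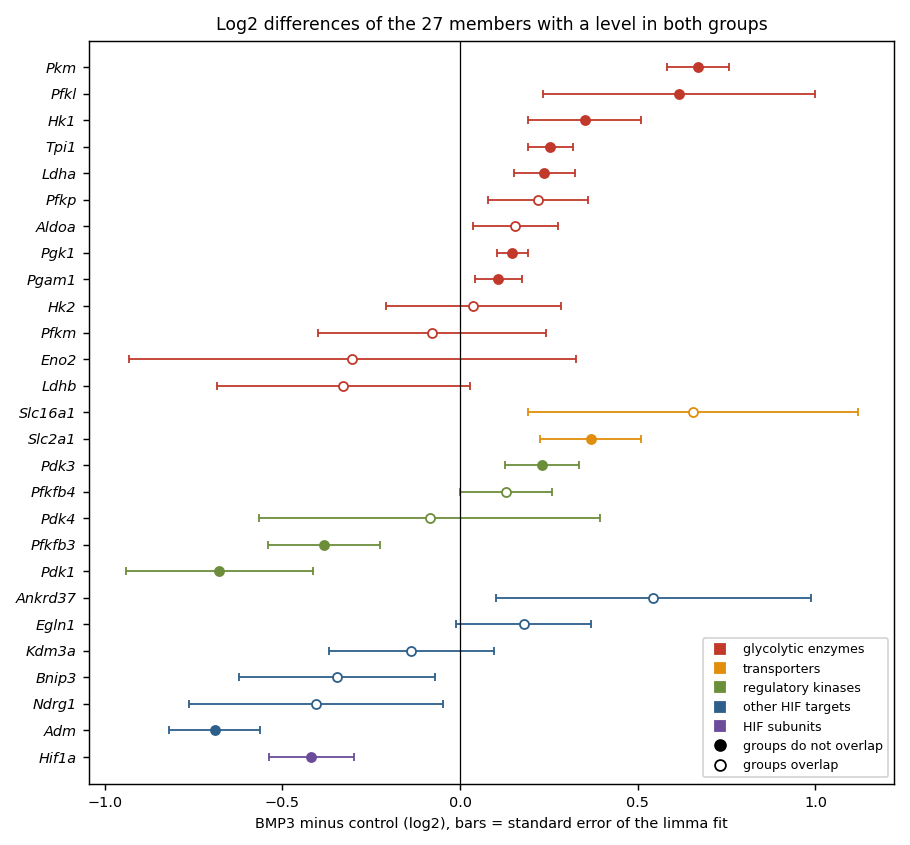
BMP3 minus control difference on the log2 scale (horizontal axis) with the standard error of the limma fit, for the 27 members above the array median in both groups, ordered within each role. Filled points mark genes whose BMP3 and control arrays did not overlap: 7 enzyme genes, Slc2a1 and Pdk3 to the right of 0, and Pdk1, Pfkfb3, Adm and Hif1a to the left.

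Among transporters, Slc2a1, which encodes the glucose transporter GLUT1, had higher values in BMP3 arrays at each of its 3 probe sets. The brightest had 12.85 and 13.18 in BMP3 arrays and 12.58 and 12.71 in control arrays (difference 0.37 ± 0.14, limma adjusted p = 0.685). The next had 11.24 and 11.50 in BMP3 arrays and 10.98 and 10.91 in control arrays (difference 0.43 ± 0.11). The dimmest had 9.34 and 9.64 in BMP3 arrays and 8.70 and 8.69 in control arrays (difference 0.79 ± 0.12, limma adjusted p = 0.334). The arrays of the groups overlapped at none of the 3 probe sets, and with single arrays left out the brightest ran from 0.21 without BMP3 replicate 2 to 0.53 without BMP3 replicate 1. Slc16a1, the lactate and pyruvate transporter MCT1, had 11.50 and 10.37 in BMP3 arrays and 10.41 and 10.14 in control arrays. BMP3 replicate 1 alone stood apart, and the difference of 0.66 ± 0.46 was 0.09 without it and 1.22 without BMP3 replicate 2. Slc2a3 (2.21 to 2.29) and Slc16a3 (2.24 to 2.28), the neuronal-type glucose transporter and the hypoxia-induced lactate exporter MCT4, were near background on all arrays, so no difference is given for them.

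Pyruvate dehydrogenase kinases hold pyruvate back from the citrate cycle, and their members went both ways. Pdk1, the HIF-induced form, had 10.75 and 10.32 in BMP3 arrays and 11.46 and 10.96 in control arrays. The arrays did not overlap, though BMP3 replicate 1 came close to control replicate 2. Its difference was -0.68 ± 0.26 (limma adjusted p = 0.685), and its other probe sets averaging 6 or more had -0.14 and -0.67, with overlap. The Pdk1 difference was -0.43 without control replicate 1 and ran to -0.93 without control replicate 2. Pdk3 had 10.08 and 9.93 in BMP3 arrays and 9.87 and 9.68 in control arrays (difference 0.23 ± 0.10, 0.13 without control replicate 2 and 0.15 without BMP3 replicate 1). Pdk4, a kinase raised by fasting and fatty acids, had 14.97 and 13.92 in BMP3 arrays around the 14.82 and 14.24 of control arrays, and Pdk2 was near background (2.09 to 2.14). Pfkfb3, which makes the activator of phosphofructokinase, had 8.81 and 8.78 in BMP3 arrays and 8.99 and 9.37 in control arrays (difference -0.38 ± 0.16), and Pfkfb3 stood at -0.19 when control replicate 2 was left out and at -0.58 when control replicate 1 was. Pfkfb4 had 6.59 on both BMP3 arrays and 6.62 and 6.30 in control arrays (difference 0.13 ± 0.13).

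Adm, which encodes the vasodilator peptide adrenomedullin, had the lowest values in BMP3 relative to control arrays among the other HIF targets with a level. It stood at 10.79 and 11.10 in BMP3 arrays and at 11.65 and 11.62 in control arrays, without overlap. The difference was -0.69 ± 0.13, or 0.62 of the control level (95% interval -1.09 to -0.29, limma adjusted p = 0.384). The second probe set had 8.63 and 9.16 in BMP3 arrays and 9.88 and 9.60 in control arrays (difference -0.85 ± 0.24). When single arrays were left out, the Adm difference ran from -0.85 to -0.53.

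At their brightest probe sets, the remaining HIF targets overlapped between groups. Bnip3, a mitophagy receptor, had 10.72 and 10.22 in BMP3 arrays and 11.05 and 10.58 in control arrays (difference -0.35 ± 0.28). Ndrg1, a gene strongly induced by hypoxia, had 12.81 and 12.02 in BMP3 arrays and 13.03 and 12.60 in control arrays (difference -0.40 ± 0.36), and its other 4 probe sets averaging 6 or more ran from -0.82 to -0.07. Of these, only the one at -0.82 was without overlap. Kdm3a, a histone H3 lysine demethylase, had 11.18 and 10.67 in BMP3 arrays and 11.20 and 10.93 in control arrays (difference -0.14 ± 0.23). In each of these genes the lower array of both groups was replicate 2, as in 14 of the 27 members above the array median in both groups and in 41.7% of genes averaging 6 or more. Without BMP3 replicate 2 the differences of Bnip3, Ndrg1 and Kdm3a were -0.09, -0.01 and 0.12.

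Egln1, the prolyl hydroxylase PHD2 and itself a HIF target, had 10.17 and 10.23 in BMP3 arrays and 9.78 and 10.25 in control arrays (difference 0.18 ± 0.19). Its second probe set had 8.97 and 9.14 in BMP3 arrays and 8.66 and 8.91 in control arrays, without overlap (difference 0.27 ± 0.12). Ankrd37 was dim, at 3.99 and 5.10 in BMP3 arrays and 3.96 and 4.04 in control arrays, and only BMP3 replicate 2 stood apart. The prolyl hydroxylase gene Egln3 (2.30 to 2.35) and the carbonic anhydrase gene Car9 (1.98 to 2.08), both induced by HIF in many cells, lay below the array median on all arrays. Bnip3l, a relative of Bnip3, shared its probe sets with a pseudogene and was left out of the counts.

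The genes of the HIF alpha subunits had lower values in BMP3 arrays. Hif1a stood at 13.03 and 12.75 in BMP3 arrays and at 13.35 and 13.27 in control arrays, without overlap (difference -0.42 ± 0.12, limma adjusted p = 0.531). A second probe set gave 9.38 and 9.41 in BMP3 arrays and 9.83 and 9.54 in control arrays (difference -0.29 ± 0.12). Epas1, which encodes HIF-2 alpha, had 3.49 and 2.43 in BMP3 arrays and 6.47 and 4.62 in control arrays. Its BMP3 mean lay below the array median, so no fold is given, and the replicates of each group stood far apart. The limma adjusted p for Epas1 was 0.601, and its second probe set was near background on all arrays (2.80 to 2.83).

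Set side by side, glycolytic enzymes and other HIF targets had medians of opposite sign in these arrays. The enzyme median of 0.15 exceeded the median of the other HIF targets, -0.08, by 0.23. With single arrays left out, the enzyme median ran from 0.14 to 0.21, the other median from -0.21 to -0.01 and their gap from 0.22 to 0.35. The other median rested on single arrays, being -0.01 without BMP3 replicate 2, -0.21 without BMP3 replicate 1 and -0.14 without control replicate 2. Their gap was 0.35 without BMP3 replicate 1. With only probe sets averaging 6 or more, which leaves 13 enzymes and 5 other targets, the medians were 0.16 and -0.35 and the gap 0.50. Among the 13 enzymes and 6 other targets above the array median in both groups, the medians were 0.16 and -0.24. Relative to each gene's own mean, the median enzyme stood at 0.18 and 0.04 in BMP3 arrays and at -0.07 and -0.18 in control arrays, without overlap. The median other HIF target stood at 0.07 and -0.26 in BMP3 arrays and at 0.28 and -0.04 in control arrays, and there the groups overlapped. As means over the same genes, enzymes stood at 0.16 and 0.004 in BMP3 arrays and at -0.006 and -0.15 in control arrays. Other HIF targets then stood at -0.04 and -0.10 in BMP3 arrays and at 0.12 and 0.02 in control arrays. By means the groups overlapped in neither list, so the overlap of the other HIF targets depended on the summary used. No test was made of the gap, because the genes of a list are not replicates and were chosen with results of these arrays known.

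**Figure D3:**
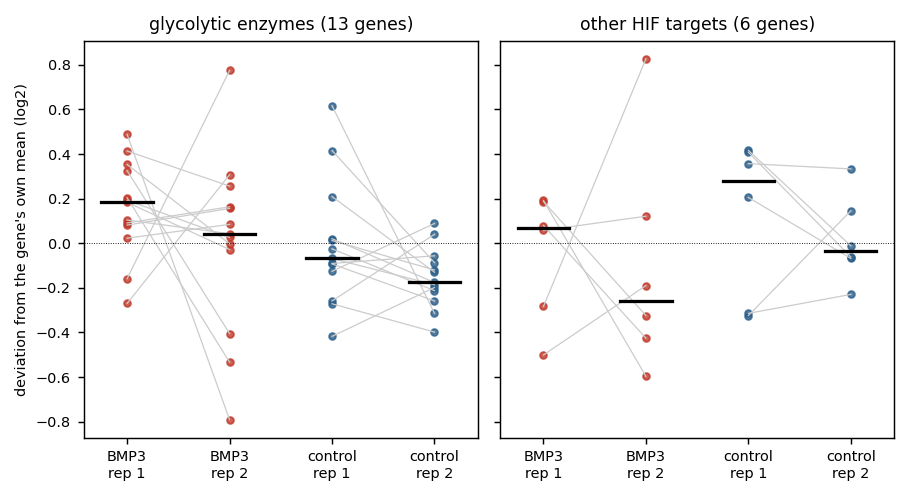
Deviation of each gene from its own mean over the 4 arrays on the log2 scale (vertical axis), for 13 glycolytic enzymes and 6 other HIF targets above the array median in both groups. Points are genes, grey lines join the replicates of 1 gene within a group and black bars are medians: the enzyme bars are at 0.18 and 0.04 in BMP3 arrays and at -0.07 and -0.18 in control arrays, while the bars of the other HIF targets overlap between groups. Means of the same genes, not drawn, overlap between groups in neither list.

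Probe sets of 1 gene did not always go the same way. Of 12 members with over 1 probe set averaging 6 or more, 7 had differences of 1 sign (Pgk1, Slc2a1, Pdk1, Egln1, Adm, Ndrg1 and Hif1a) and 5 of mixed sign (Hk1, Pfkl, Aldoa, Tpi1 and Ldhb). All of the mixed ones were enzymes. The 3 Tpi1 probe sets ran from -0.02 to 0.25, the 5 of Aldoa from -0.06 to 0.25 and the 4 of Ldhb from -0.33 to 0.04. With the mean of all probe sets of a gene in place of the brightest, the enzyme median was 0.09 and that of the other HIF targets -0.09. The brightest probe sets of Aldoa, Tpi1, Pgk1 and Ndrg1 carry names ending in _x_at, Affymetrix's mark for probes that can also match other transcripts. So do the second Adm probe set and the Epcam probe set given above. Values from such probe sets are uncertain as measures of 1 gene, and glycolytic enzyme genes have many processed pseudogenes.

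**Figure D4:**
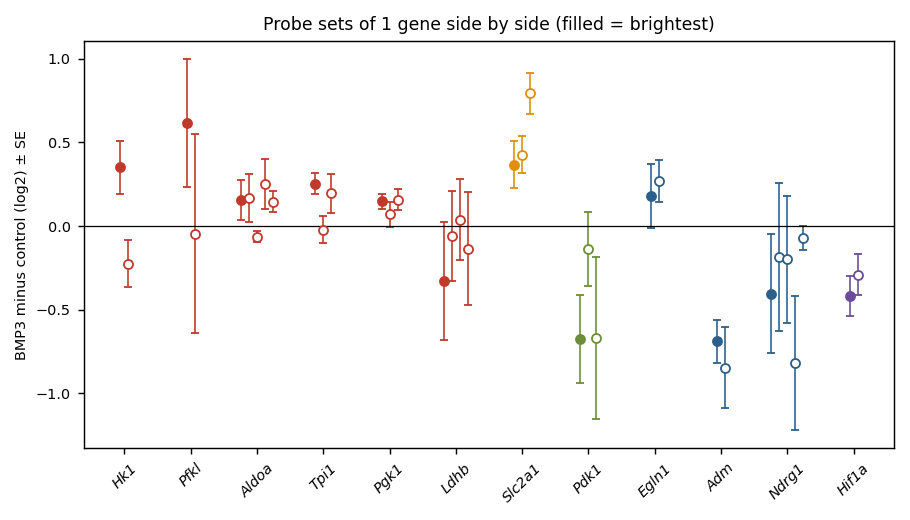
BMP3 minus control difference on the log2 scale (vertical axis) with its standard error, for each probe set averaging 6 or more of the 12 members that have several, filled for the brightest. Slc2a1 probe sets all lie above 0 (0.37 to 0.79) and Adm probe sets below it (-0.85 and -0.69), while those of Hk1, Pfkl, Aldoa, Tpi1 and Ldhb lie on both sides.

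Neighbouring pathways gave a mixed picture, with 0 genes past limma's adjusted threshold in any list. Of 15 further HIF targets, 11 were higher and 4 lower (median 0.12). BMP3 arrays lay wholly above control arrays for 4 (background 16.7% of genes) and wholly below for 3 (background 20.6%). Ddit4, an inhibitor of mTORC1 signalling, had 11.05 and 11.10 in BMP3 arrays and 10.26 and 10.33 in control arrays (difference 0.78 ± 0.05, limma adjusted p = 0.213). Bhlhe40 had 9.90 and 9.88 in BMP3 arrays and 9.27 and 9.35 in control arrays (difference 0.58 ± 0.05, limma adjusted p = 0.224). Vegfa, which encodes the main angiogenic growth factor, had 10.03 and 10.38 in BMP3 arrays and 9.70 and 9.90 in control arrays (difference 0.41 ± 0.16), while the nuclear receptor gene Rora had 6.14 and 5.99 in BMP3 arrays and 7.70 and 7.22 in control arrays (difference -1.40 ± 0.20). Their median had the opposite sign to the -0.08 of the other HIF targets described above. In the HIF pathway itself, 6 of 8 genes were higher and 2 lower. Arnt, the shared partner subunit, had 9.89 and 9.80 in BMP3 arrays and 10.69 and 10.41 in control arrays, without overlap. Its difference was -0.71 ± 0.12 (limma adjusted p = 0.355), and it alone of the 8 genes had non-overlapping arrays. BMP3 arrays lay wholly lower for 20.6% of all genes and for 21.7% of those averaging 6 or more. Hif1a and Epas1 were also lower without overlap, but the Epas1 BMP3 mean lay below the array median.

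Genes of the citrate cycle and of pyruvate dehydrogenase were higher for 8 of 16 and lower for 8 (median -0.01). Ogdh, a subunit of oxoglutarate dehydrogenase, had 9.41 and 9.44 in BMP3 arrays and 8.99 and 9.08 in control arrays (difference 0.39 ± 0.05, limma adjusted p = 0.299). Pentose phosphate genes were higher for 4 of 6 and lower for 2 (median 0.20), with Pgls, the lactonase of that pathway, at 11.90 and 12.01 in BMP3 arrays and 11.67 and 11.52 in control arrays (difference 0.36 ± 0.08). Of 15 gluconeogenesis and glycogen genes, 4 were higher and 11 lower (median -0.02), and 5 of them were near background. Other glycolytic isoenzymes were near background for 5 of 8. The exception with the smallest p was Eno3, the muscle enolase, at 8.50 and 8.57 in BMP3 arrays and 8.02 and 7.98 in control arrays (difference 0.54 ± 0.05, limma adjusted p = 0.233).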

How the data were processed

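Groups and replicate numbers came from the sample titles. The authors deposited a log2 intensity for every probe set on each array, a scale read from the values alone. The submitters' processing notes name Partek without a version or step. How background, normalization and probe summary were handled is not given in the sources used here, and a normalization that equalises arrays would hide a change shared by most transcripts. After 64 control probe sets were left out, 45037 were fitted with limma 3.58.1 in R 4.3.3 (lmFit, eBayes, 1.18 prior degrees of freedom, two-sided, Benjamini-Hochberg over all probe sets). The platform annotation gave 1 symbol for 34945 of these, none for 9160 and several for 932. Each listed gene was named by its brightest probe set, and in the neighbouring lists up to 4 genes of smallest unadjusted p could be named. A gene whose mean lay below the array medians in both groups has levels only, and in 1 group no fold. Members and lists were chosen with earlier results of these data known. P-values measure only the spread between these cultures. In simulated data of 45037 probe sets, the adjusted threshold recovered 36% of log2 changes of 1 and 62% of those of 2. Alternatives left out single arrays, added the replicate number as a block or a trended robust prior, rescaled by quantiles or by array medians, dropped probe sets averaging under 6, averaged all probe sets of a gene, or added 16 on the linear scale.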

Additional observations from a re-analysis of the deposited data

Results flagged for a closer look

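Probe sets outside the comparisons above were also annotated to the listed genes Gapdh, Bnip3l and Hk1. Some had both BMP3 arrays above both control arrays (background 16.7% of genes), and others did not. Gapdh, the glyceraldehyde phosphate dehydrogenase gene, shares its probe sets with pseudogenes. The brightest of these had 14.38 and 14.55 in BMP3 arrays and 14.31 and 14.19 in control arrays (difference 0.21), and a second had 8.66 and 8.67 in BMP3 arrays and 8.58 and 8.53 in control arrays (difference 0.11). The 3' control probe set for Gapdh had 14.98 and 14.99 in BMP3 arrays and 14.94 and 14.78 in control arrays (difference 0.12). The 5' control probe set had 15.07 and 15.43 in BMP3 arrays and 15.50 and 15.34 in control arrays, with overlap and the opposite sign (-0.17). A further Gapdh control probe set overlapped too (difference 0.04). For Bnip3l, 1 of 3 probe sets shared with a pseudogene was higher without overlap (difference 0.15). It had 13.03 and 13.15 in BMP3 arrays and 12.97 and 12.91 in control arrays. Another was lower without overlap, at 9.85 and 9.86 in BMP3 arrays and 10.11 and 9.88 in control arrays (-0.14). The remaining one overlapped (difference 0.10). A probe set annotated to 6 symbols, Hk1 and Rpl17 among them, also overlapped. It had 16.41 and 16.43 in BMP3 arrays and 16.42 and 16.43 in control arrays.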

How the results depend on the processing

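Of 27 members with a difference, 18 kept their direction under all 11 alternatives and 9 turned only where an array was left out. Their ranges over those fits were -0.25 to 0.33 for Hk2, -0.44 to 0.29 for Pfkm, -0.94 to 0.34 for Eno2, -0.70 to 0.0396 for Ldhb, -0.61 to 0.44 for Pdk4, -0.0282 to 0.29 for Pfkfb4, -0.0563 to 0.41 for Egln1, -0.0117 to 1.10 for Ankrd37 and -0.39 to 0.12 for Kdm3a. No member passed limma's adjusted threshold under any alternative (lowest adjusted p = 0.14), and with a trended robust prior 1 probe set, of no member, did. Members at p under 0.05 and 1.5-fold numbered 1 to 3 higher (Pfkl and Ankrd37 added without BMP3 replicate 1, Slc16a1 without BMP3 replicate 2) and 0 to 1 lower with single arrays left out, fits with 1 residual degree of freedom. The lower count was 2 under the trended prior (Pdk1 added), 2 with the mean of all probe sets (Epas1 added) and 3 with the replicate number as a block (Pdk1 and Epas1 added). The labels do not say that a number marks a shared batch. Same-numbered arrays deviated together (r = 0.451 over all probe sets and 0.596 over those averaging 6 or more, which are not independent), and the block changed no other count. With only probe sets averaging 6 or more, the median of the other HIF targets was -0.35 and the gap to the enzymes 0.50, since Egln3, Car9 and Ankrd37 drop out. Median centring moved all genes' median to 0.03. Signal near background limits Aldoc, Slc2a3, Slc16a3, Pdk2, Egln3, Car9 and Epas1.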
